A study of Homo sapiens with 12 samples.

Results

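Ribosome biogenesis factors are the proteins that make and assemble ribosomes without being part of the finished ribosome. The 48 genes described here are a listed set of such factors. They fall into 7 roles: 6 genes of RNA polymerase I and its transcription factors, 3 of the box C/D core, 4 of the box H/ACA core, 5 nucleolar scaffold and regulator genes, 4 DEAD-box helicases, 11 processome and small-subunit genes and 15 large-subunit genes. All 48 were found among the 17818 genes of the deposited table, of which 17672 had a symbol, and all 48 reached at least 1 TPM, a transcript level corrected for length and scaled to the same total in every group, in both lines.

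As background, ribosome synthesis starts in the nucleolus, where RNA polymerase I transcribes one long precursor of the large ribosomal RNAs. Box C/D particles guide methylation of that precursor, box H/ACA particles guide its pseudouridylation, and a large assembly called the small-subunit processome cuts and folds the part that becomes the small subunit. A further set of factors builds the large subunit. The transcription factor MYC is known to drive many of these genes through E-box sites, and proliferating colorectal cancer cells express them strongly.

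RNA was sequenced from SW480 and HCT116, established human colon cancer cell lines, in a control group with empty vector (NC) and a group that overexpresses USP51 (USP51-OE). USP51 is a protease that removes ubiquitin from proteins. The labels describe 12 libraries, 3 in each of the 4 groups, all grown in serum-containing medium with no further treatment, and they do not say whether the overexpressing cells were a pool or a clone, or which promoter drives the construct. The single-library columns match no label, so every value below is the authors' mean of a group, and no replicate spread, n or p-value is given with it. A difference between groups is therefore a difference between 2 means, described by its size and by counting error alone.

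Estimated counts per group mean totalled 15625249 for SW480 control, 15920306 for SW480 with USP51, 15823540 for HCT116 control and 15506686 for HCT116 with USP51. USP51 itself was at 0.513 TPM in SW480 control and 25.7 TPM with the construct, and it was listed at 0 in HCT116 control and at 40.8 TPM with the construct. Of 12 markers of colon epithelium, 8 reached 1 TPM in each group, with summed levels from 6325 to 11559 TPM. The differentiation markers LGALS4, GPA33 and CDX1 stayed below 1 TPM in all 4 groups, KRT20 was below 1 TPM in SW480 and VIL1 was below 1 TPM in HCT116. Markers of fibroblasts, immune cells and endothelium summed to at most 20.9 TPM, 8.71 TPM and 0.523 TPM. No endothelial marker reached 1 TPM, and CD68 was the highest immune marker in every group.

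The 48 genes were abundant in all groups. Their median level was 83.7 TPM in SW480 control, 85.6 TPM in SW480 with USP51, 85.4 TPM in HCT116 control and 74.7 TPM in HCT116 with USP51. The median of all genes with at least 1 TPM lay between 17.1 and 18.2 TPM in the same groups. NPM1, a histone and ribosome chaperone of the nucleolus, was the most abundant, and UTP15, a processome subunit, was the least abundant. Summed over the 48 genes, the level was 8699 TPM in SW480 control and 8970 TPM with USP51, against 8736 TPM in HCT116 control and 8353 TPM with USP51. Without NPM1 the same sums were 5542, 5711, 6223 and 5803 TPM. The sum was thus higher with USP51 in SW480 and lower with USP51 in HCT116, with and without the most abundant gene.

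**Figure D1:**
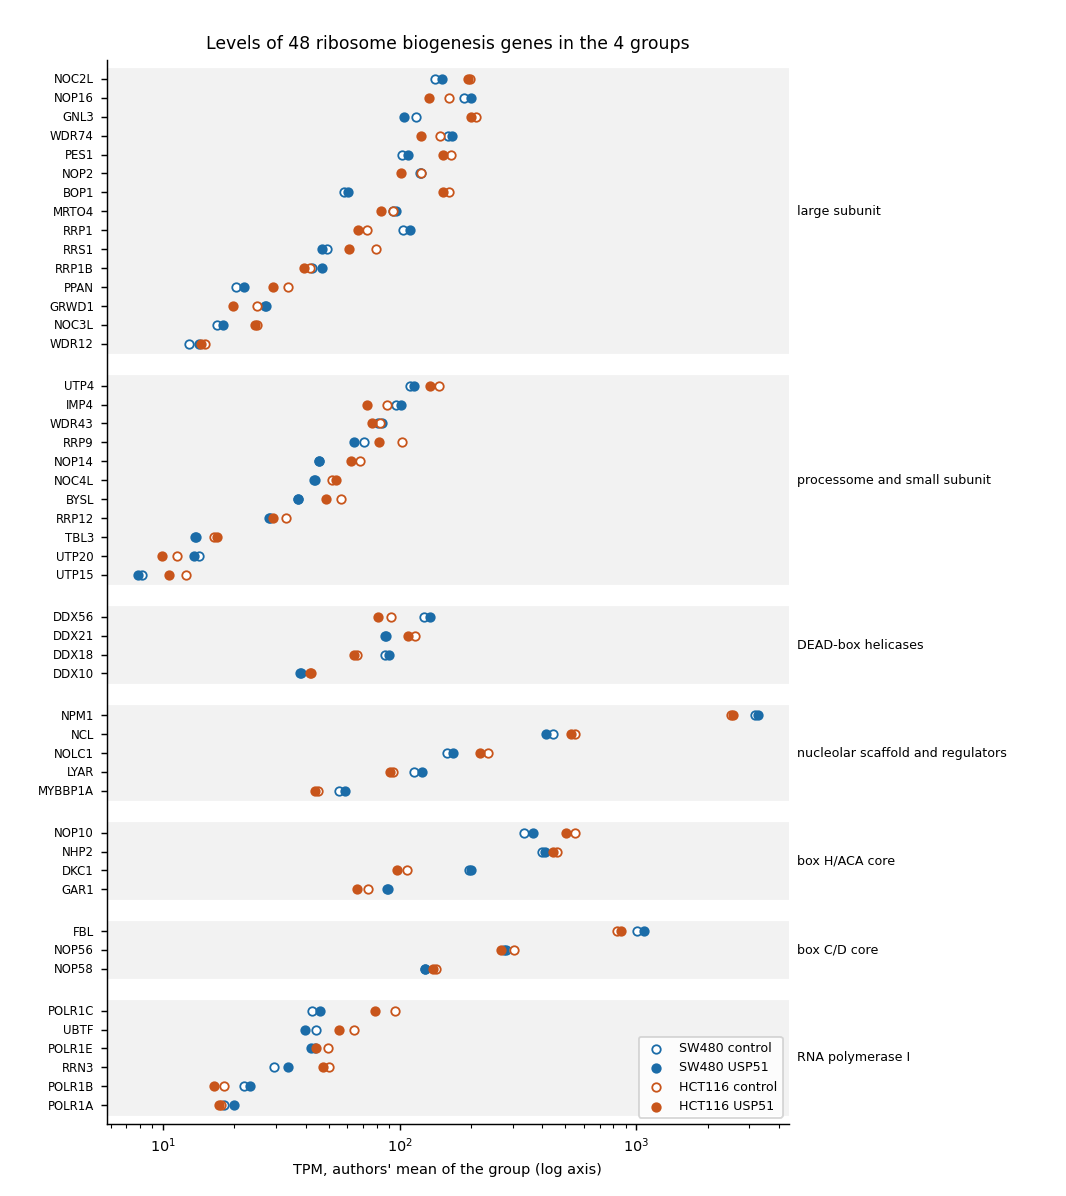
Level of each of the 48 genes in the 4 groups, as the authors' mean TPM on a log axis. Open circles are controls, filled circles carry USP51, blue is SW480, orange is HCT116, and grey bands separate the 7 roles. NPM1 lies far to the right between 2513 and 3259 TPM, UTP15 lies at the left between 7.80 and 12.5 TPM, and most filled orange circles lie to the left of their open ones.

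The difference from control was measured as log2((TPM with USP51 + 1) / (control TPM + 1)), a scale that understates differences of low genes. In HCT116, 44 of the 48 genes were below control with USP51, where 39.2% of the 12393 genes tested were below control. Their median log2 ratio was -0.12, beside 0.04 over all genes. In SW480, 13 of the 48 were below control, where 61.1% of the 12175 genes tested were below control, and the median was 0.05 beside -0.04 over all genes. On this TPM scale the 48 genes thus lay mostly on the other side of 0 from the bulk of genes in both lines. The sizes were small.

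In HCT116 the number of genes at least 1.2-fold lower with USP51 was 7 of 48, where 2.16% of all genes tested met that size. They were RRS1, GRWD1, RRP9, POLR1C, IMP4, NOP2 and NOP16. None of the 48 was at least 1.2-fold higher in HCT116, where 12.1% of all genes were. In SW480 none of the 48 was at least 1.2-fold lower, where 10.1% of all genes were, and none was at least 1.2-fold higher, where 3.60% of all genes were. At 1.1-fold, 19 of the 48 were lower in HCT116, where 9.47% of all genes were, and 3 were lower in SW480, where 25.7% were. At 1.5-fold none was lower in either line, where 0.145% of all genes in HCT116 and 0.879% in SW480 were. These are counts by size and not by a test. The tables of both lines lean on how totals are scaled: with counts per total (CPM) in place of TPM, 49.7% of all genes were below control in SW480 and 46.1% in HCT116. Genes past 1.2-fold in SW480 split into 1226 lower and 438 higher in TPM but into 958 and 627 in CPM and into 867 and 713 with RLE factors (relative log expression). In HCT116 they split into 268 lower and 1501 higher in TPM, and into 448 and 1254 with TMM factors (trimmed mean of M-values). With TMM factors the median over all genes was 0.010 in SW480 and -0.009 in HCT116. That is the same side of 0 as the median of the 48 genes, unlike in TPM. Relative to these shifts the direction of the median of the 48 genes did not turn: it ran from 0.03 to 0.11 in SW480 and from -0.18 to -0.12 in HCT116 over all alternatives.

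Counting error was set beside each difference as a ratio of counts per total count, USP51 over control, with its 95% exact (Clopper-Pearson) interval, treating each mean as the count of 1 library. In HCT116 the interval lay below 1 for 34 of the 48 genes, where it did so for 11.7% of all genes, and above 1 for none, where it did so for 17.1% of all genes. In SW480 it lay above 1 for 22 genes, where it did so for 13.6% of all genes, and below 1 for 2, NCL and GNL3, where it did so for 14.2% of all genes. The 48 genes have more counts than most, which narrows their intervals, so these shares are not on equal terms with those of all genes. The interval covers the error of counting reads alone. PCR copies are not independent molecules, and the spread between cultures is not covered.

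**Figure D2:**
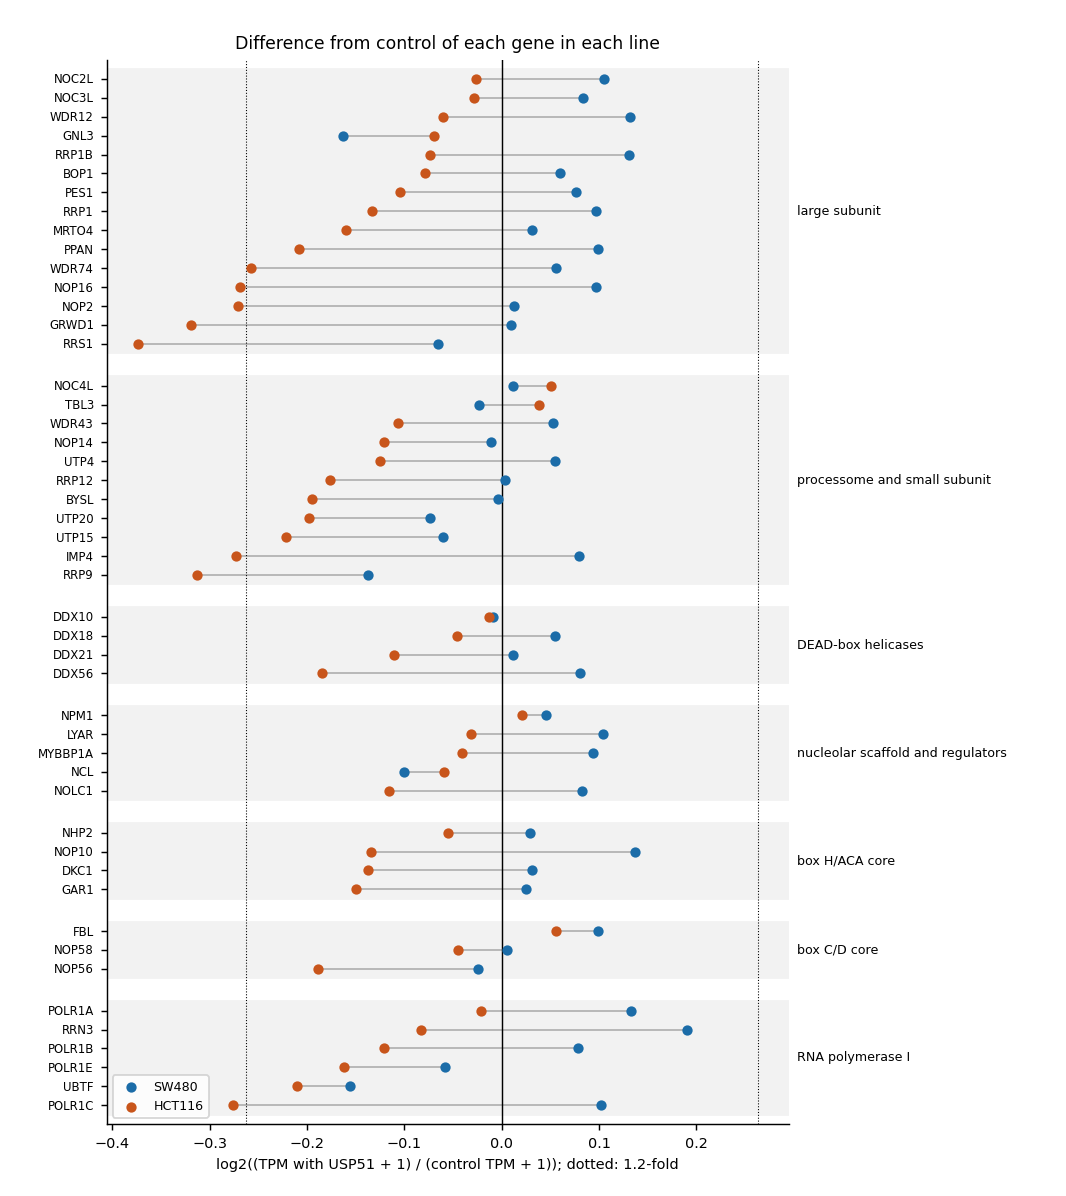
Difference from control of each of the 48 genes, as log2((TPM with USP51 + 1) / (control TPM + 1)), in SW480 (blue) and HCT116 (orange), with the 2 values of a gene joined by a line. Dotted lines mark 1.2-fold. The orange points lie left of the blue ones for 44 of 48 genes, and 7 orange points lie beyond the dotted line on the left.

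Level and difference were related across all genes in HCT116 and only weakly in SW480, and the 48 genes sit at the high end. Across the 12393 genes of HCT116, which are not independent replicates, the Spearman correlation of the log2 ratio with the mean TPM was -0.288, and across the 12175 genes of SW480 it was 0.055. In HCT116 the median over all genes was 0.10 at 1 to 10 TPM, 0.05 at 10 to 30 TPM, 0.003 at 30 to 100 TPM and -0.02 at 100 to 300 TPM. Of the 48 genes, 7 of 8 were below control at 10 to 30 TPM, 21 of 22 at 30 to 100 TPM, 13 of 13 at 100 to 300 TPM and 3 of 5 above that. The shares of all genes below control in the same ranges were 37.1%, 49.1%, 59.2% and 58.3%, so above 300 TPM the 5 genes were near the share of all genes. In SW480, 2 of 9 listed genes were below control at 10 to 30 TPM and 7 of 19 at 30 to 100 TPM. At 100 to 300 TPM 2 of 14 were, and above that 1 of 5. The shares of all genes in these ranges were 65.4%, 61.2%, 53.9% and 42.9%. The 1 listed gene at 1 to 10 TPM was below control, where 61.4% of all genes were. After subtracting the median of genes of like abundance and length, a step chosen after the values were seen, the median of the 48 genes was -0.12 in HCT116 with 45 below 0, and 0.07 in SW480 with 7 below 0.

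**Figure D3:**
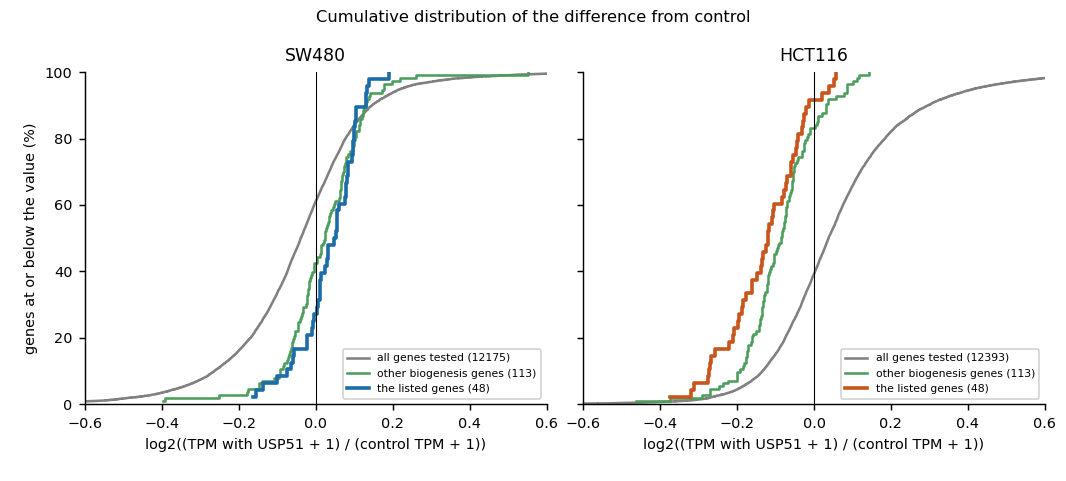
Share of genes at or below each log2 ratio, USP51 against control, in SW480 (left) and HCT116 (right). Grey is all genes tested, green is 113 other ribosome biogenesis genes, and the coloured line is the 48 listed genes. The coloured and green lines lie right of grey over the lower part of the left panel and left of grey in the right panel, where 91.7% of the 48 genes are below 0.

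The promoters of the 48 genes were read because the genes lay on one side of control together in HCT116. The RefSeq promoter table of GRCh38.p14, which covers 250 bases before to 50 bases after each start, held 40 of the 48 genes with 51 promoters. The E-box CACGTG, which reads the same on both strands, was in a promoter of 18 of the 40 genes (45%). It was in 12.4% of the 10752 genes with at least 1 TPM that have a promoter in the table, in 8.77% of all 27305 genes of the table and in 29.3% of 99 other biogenesis genes. Counted by promoter, it was in 35.3% of the 51 promoters, against 7.26% of all 35116 promoters of the table. The ETS motif CCGGAAGT, on either strand, was in 13 of the 40 (32.5%), against 9.71% of those expressed genes, 4.95% of all genes and 27.3% of the other biogenesis genes. The GC box GGGCGG, on either strand, was in 30 of the 40 (75%), against 77.6%, 48.3% and 60.6% in the same order. The motifs were searched one by one, so matches of the GC box and of the ETS motif can share bases. A match is a description of the letters and not a bound site.

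The E-boxes lay close to the start: 17 of 20 began within 50 bases of it, 12 after it and 8 before it, between position -203 and position 36. IMP4 and NOP10 had 2 each. Windows of 22 bases are shown for 8 genes whose values are given below, 5′ to 3′ on the strand of the gene, with the E-box in capitals, so that the shared core and the differing flanks can be compared.
IMP4, chr2:130342686-130342707, plus strand: tcctaagtCACGTGtgacattc
IMP4, chr2:130342904-130342925, plus strand: cccggaccCACGTGgaagcggc
GNL3, chr3:52686030-52686051, plus strand: tcagttcaCACGTGgcgccagc
LYAR, chr4:4290072-4290093, minus strand: ggcgagtcCACGTGctccccgc
GAR1, chr4:109815785-109815806, plus strand: cagaggggCACGTGgcgccggt
NOP2, chr12:6568243-6568264, minus strand: ccggattgCACGTGgagggccg
UTP20, chr12:101280087-101280108, plus strand: tttccgtcCACGTGacccactc
NOP10, chr15:34343293-34343314, minus strand: ggacactcCACGTGttttagcc
NOP10, chr15:34343134-34343155, minus strand: ttgacgaaCACGTGacgcggtc
FBL, chr19:39846360-39846381, minus strand: ctcttttcCACGTGcgaaagcc
The flanks differ from gene to gene, and in IMP4 and NOP10 the distal and the proximal E-box also have different flanks.

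The 3 genes with the lowest log2 ratios in HCT116 whose promoters are printed are GRWD1, RRP9 and POLR1C. Each stretch runs from 230 bases before the start to 20 bases after it, 5′ to 3′ on the strand of the gene, with E-box, ETS and GC box matches in capitals.
GRWD1, chr19:48445753-48446002, plus strand: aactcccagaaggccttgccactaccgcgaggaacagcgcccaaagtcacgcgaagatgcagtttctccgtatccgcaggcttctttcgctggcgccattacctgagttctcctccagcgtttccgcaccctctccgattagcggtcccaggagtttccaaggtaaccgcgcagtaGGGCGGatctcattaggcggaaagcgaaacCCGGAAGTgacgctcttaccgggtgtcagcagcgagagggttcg
RRP9, chr3:51941885-51942134, minus strand: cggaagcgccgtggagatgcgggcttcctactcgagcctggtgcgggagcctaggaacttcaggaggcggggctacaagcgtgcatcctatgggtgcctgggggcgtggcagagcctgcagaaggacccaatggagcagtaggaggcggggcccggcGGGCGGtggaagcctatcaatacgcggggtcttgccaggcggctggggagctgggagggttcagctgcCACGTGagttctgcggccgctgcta
POLR1C, chr6:43516859-43517108, plus strand: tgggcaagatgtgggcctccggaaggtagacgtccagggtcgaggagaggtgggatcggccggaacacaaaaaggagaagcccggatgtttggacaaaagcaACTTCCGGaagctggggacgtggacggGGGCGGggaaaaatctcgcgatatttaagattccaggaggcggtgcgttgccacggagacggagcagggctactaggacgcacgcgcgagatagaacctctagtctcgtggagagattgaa
GRWD1 has 1 GC box and 1 ETS match, POLR1C has 1 GC box and 1 ETS match on its other strand, and RRP9 has 1 GC box and 1 E-box next to the start. Low values in HCT116 thus occur with and without an E-box. Over the 40 genes, the 18 with an E-box had a median log2 ratio of -0.12 in HCT116 and 0.04 in SW480, and the 22 without had -0.13 and 0.05. The 13 genes with an ETS match had -0.13 and 0.08, and the 27 without had -0.11 and 0.03. The 30 genes with a GC box had -0.13 and 0.03, and the 10 without had -0.09 and 0.08. None of these differences was tested.

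**Figure D4:**
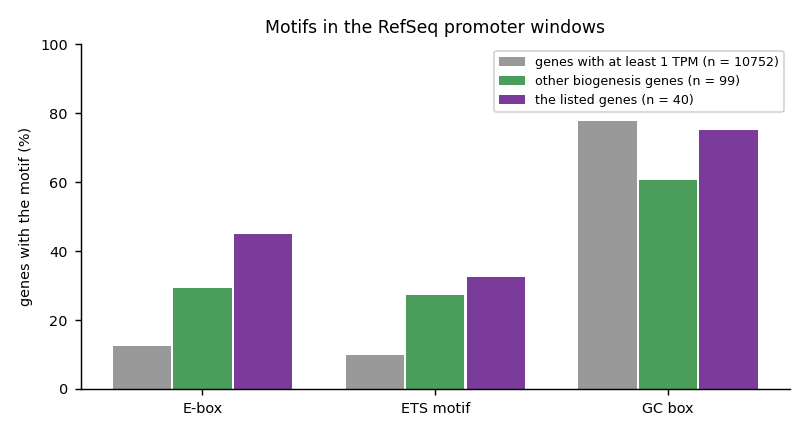
Share of genes with at least 1 match of the E-box, the ETS motif or the GC box in a RefSeq promoter window, for genes with at least 1 TPM (grey, n = 10752), other biogenesis genes (green, n = 99) and the listed genes (purple, n = 40). The purple bar stands at 45% for the E-box and at 32.5% for the ETS motif, above the grey bars at 12.4% and 9.71%, while for the GC box purple is at 75% and grey at 77.6%.

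RNA polymerase I genes were below control in HCT116 in 6 of 6 cases, with a median log2 ratio of -0.14, and above control in SW480 in 4 of 6, with a median of 0.09. POLR1C, a subunit that RNA polymerases I and III share (NCBI gene 9533, chr6:43517089-43562407), was at 95.3 TPM in HCT116 control and 78.6 TPM with USP51, beside 42.7 and 45.9 TPM in SW480. Its count ratio was 0.811 (0.738 to 0.891) in HCT116 and 1.11 (0.973 to 1.26) in SW480, so only the first interval excluded 1. The gene overlaps XPO5, and whether counting used strand is not given in the sources used here. POLR1A, the largest catalytic subunit, was at 17.5 TPM in HCT116 control and 17.3 TPM with USP51, beside 18.1 and 19.9 TPM in SW480, where the ratio was 1.14 (1.07 to 1.2). POLR1B, the second catalytic subunit, was at 18.0 and 16.5 TPM in HCT116 and at 21.9 and 23.2 TPM in SW480. POLR1E was lower with USP51 in both lines, at 49.7 and 44.3 TPM in HCT116 and at 44.0 and 42.2 TPM in SW480, although RLE factors brought its SW480 ratio to 0.00.

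Of the transcription factors of the polymerase, one was higher with USP51 in SW480 and one was lower. RRN3, which brings the polymerase to the promoter of ribosomal DNA, was at 29.5 TPM in SW480 control and 33.8 TPM with USP51, a log2 ratio of 0.19 that was the highest of the 48 in SW480. In HCT116 it was at 50.1 and 47.2 TPM. RRN3 overlaps PDXDC1 and has near-identical pseudogenes, so its counts are uncertain. UBTF, which binds along ribosomal DNA, was lower with USP51 in both lines, at 64.1 and 55.2 TPM in HCT116 and at 44.3 and 39.7 TPM in SW480. Its HCT116 count ratio was 0.835 (0.784 to 0.889), and its SW480 ratio of 0.937 had an interval that reached 1 (0.872 to 1.01).

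In the box C/D core 2 of 3 genes were below control in HCT116 and 2 of 3 above control in SW480, with medians of -0.05 and 0.01. FBL, the methyltransferase fibrillarin, was at 1002 TPM in SW480 control and 1073 TPM with USP51, beside 827 and 860 TPM in HCT116, so it was above control in both lines. About 99% of its level in each group was assigned to a predicted transcript. On curated transcripts alone, which hold 0.592% to 0.858% of it, the log2 ratio was -0.26 in SW480 and -0.17 in HCT116, so the direction turned. NOP56, a scaffold of the same particle, was at 305 TPM in HCT116 control and 267 TPM with USP51, with a count ratio of 0.861 (0.827 to 0.896). In SW480 NOP56 was at 280 and 276 TPM, and its direction there turned with the scaling. NOP58, the paralog that pairs with NOP56, was at 142 and 138 TPM in HCT116 and at 128 TPM in both groups of SW480.

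All 4 genes of the box H/ACA core lay below control in HCT116, with a median of -0.14, and above control in SW480, with a median of 0.03. NOP10, a small structural subunit, was at 552 TPM in HCT116 control and 503 TPM with USP51, beside 334 and 367 TPM in SW480. DKC1, the pseudouridine synthase dyskerin, was at 107 and 97.5 TPM in HCT116 and at 196 and 200.0 TPM in SW480. GAR1, a further protein of the particle, was at 73.5 and 66.2 TPM in HCT116 and at 87.9 and 89.4 TPM in SW480. NHP2, which binds the guide RNA, was at 462 and 445 TPM in HCT116 and at 401 and 409 TPM in SW480, and it overlaps RMND5B. The HCT116 intervals of NOP10, DKC1 and GAR1 lay below 1, at 0.897 (0.829 to 0.971), 0.893 (0.843 to 0.946) and 0.883 (0.781 to 0.999). That of NHP2 in HCT116 included 1. In SW480 the intervals of NOP10 and DKC1 lay above 1, and those of GAR1 and NHP2 included 1.

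Among the nucleolar scaffold and regulator genes the differences were small, with a median of -0.04 in HCT116 and 0.08 in SW480. NPM1 was at 3157 TPM in SW480 control and 3259 TPM with USP51, beside 2513 and 2550 TPM in HCT116, where its count ratio was 0.996 (0.981 to 1.01) and its direction turned with the scaling. NPM1 has many pseudogenes that can take or give reads. NCL, nucleolin, was lower with USP51 in both lines, at 551 and 528 TPM in HCT116 and at 445 and 415 TPM in SW480. NOLC1, a nucleolar phosphoprotein, was at 237 and 219 TPM in HCT116 and at 158 and 167 TPM in SW480. LYAR, a nucleolar regulator of growth, was at 93.3 and 91.2 TPM in HCT116 and at 115 and 124 TPM in SW480. MYBBP1A, a nucleolar co-regulator of transcription, lay between 43.7 and 59.0 TPM over the 4 groups.

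The 4 DEAD-box helicases, enzymes that rearrange RNA in the assembling particles, were all below control in HCT116, with a median of -0.08. DDX56, a helicase of large-subunit assembly, had the largest difference of the 4, at 92.2 TPM in HCT116 control and 81.0 TPM with USP51, beside 127 and 134 TPM in SW480. Its count ratio was 0.861 (0.813 to 0.913) in HCT116 and 1.09 (1.04 to 1.14) in SW480, intervals on either side of 1. DDX10 had the smallest, at 42.1 and 41.8 TPM in HCT116 and at 38.2 and 38.0 TPM in SW480. DDX18 and DDX21 lay between them in HCT116, at -0.05 and -0.11.

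Processome and small-subunit genes were below control in HCT116 in 9 of 11 cases, with a median of -0.18, the lowest of the 7 roles, and in SW480 in 6 of 11, with a median of -0.004. RRP9, a protein of the U3 particle (NCBI gene 9136, chr3:51933429-51941904), was at 102 TPM in HCT116 control and 82.0 TPM with USP51, beside 70.5 and 64.0 TPM in SW480. Its count ratio was 0.789 (0.727 to 0.855) in HCT116 and 0.936 (0.853 to 1.03) in SW480, so the value with USP51 was lower in both lines and the HCT116 interval alone excluded 1. IMP4, another U3 protein (NCBI gene 92856, chr2:130342897-130347967), was at 88.2 and 72.8 TPM in HCT116 and at 96.1 and 102 TPM in SW480. Its intervals lay on either side of 1, with 0.812 (0.760 to 0.867) in HCT116 and 1.09 (1.03 to 1.15) in SW480.

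UTP15 and UTP20 were lower in TPM with USP51 in both lines, except that UTP15 lay at 0.01 in SW480 after centring on genes of like abundance and length. Their SW480 count ratios were 0.981 (0.855 to 1.13) and 0.975 (0.902 to 1.05), so both intervals included 1. In HCT116 both intervals lay below 1. UTP15 was at 12.5 TPM in HCT116 control and 10.5 TPM with USP51, beside 8.17 and 7.80 TPM in SW480. UTP20, a very large scaffold protein, was at 11.4 and 9.85 TPM in HCT116 and at 14.2 and 13.5 TPM in SW480. The genes above control in HCT116 were TBL3, at 16.4 and 16.9 TPM, and NOC4L, at 51.9 and 53.7 TPM, and both intervals included 1. In SW480 TBL3 was at 13.8 and 13.6 TPM and NOC4L at 43.4 and 43.8 TPM. TBL3 turned to the other side of control under TMM and RLE factors and after centring on genes of like abundance and length, and NOC4L came to 0.00 under TMM factors. The other 5 genes, UTP4, WDR43, NOP14, BYSL and RRP12, lay between -0.19 and -0.11 in HCT116 and between -0.01 and 0.06 in SW480.

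Large-subunit genes were below control in HCT116 in 15 of 15 cases, with a median of -0.13, and above control in SW480 in 13 of 15, with a median of 0.08. One of them, RRP1, came to 0.01 in HCT116 on curated transcripts alone, which hold 1.65% to 2.27% of its level. GRWD1, a chaperone of a ribosomal protein (NCBI gene 83743, chr19:48445983-48457022), was at 24.9 TPM in HCT116 control and 19.8 TPM with USP51, beside 27.1 and 27.2 TPM in SW480. Its count ratio was 0.779 (0.717 to 0.846) in HCT116 and 1.04 (0.966 to 1.12) in SW480. NOP16 (NCBI gene 51491, chr5:176383946-176388598) was at 161 and 133 TPM in HCT116 and at 186 and 199 TPM in SW480, with count ratios of 0.815 (0.742 to 0.895) and 1.11 (1.02 to 1.2). GRWD1 overlaps KCNJ14 and NOP16 overlaps ARL10. NOP2, an RNA methyltransferase (NCBI gene 4839, chr12:6556871-6568291), is added because it is one of the 7 genes past 1.2-fold. It was at 123 and 102 TPM in HCT116, a count ratio of 0.811 (0.769 to 0.856), and at 121 and 122 TPM in SW480.

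RRS1, which helps to place a small ribosomal RNA into the large subunit (NCBI gene 23212), had the lowest log2 ratio of the 48 in HCT116, at -0.37. It was at 79.2 TPM in HCT116 control and 60.9 TPM with USP51, beside 49.2 and 47.0 TPM in SW480. The count ratio was 0.755 (0.691 to 0.824) in HCT116 and 0.984 (0.888 to 1.09) in SW480. WDR74 was just short of 1.2-fold in HCT116, at 148 and 123 TPM, with a log2 ratio of -0.26, and in SW480 it was at 160 and 167 TPM. GNL3, nucleostemin, had the lowest log2 ratio of the 48 in SW480, at -0.16, with 117 TPM in control and 104 TPM with USP51, and in HCT116 it was at 210 and 200.3 TPM. It overlaps GLT8D1. WDR12, a member of the complex with PES1 and BOP1, and RRP1B each reached 0.13 in SW480, at 12.9 and 14.2 TPM and at 42.8 and 46.9 TPM. In HCT116 they were at 15.1 and 14.4 TPM and at 41.6 and 39.4 TPM. NOC2L was nearest to 0 of this role in HCT116, at 198 and 195 TPM, while in SW480 it was at 141 and 152 TPM. The remaining 6, BOP1, PES1, RRP1, NOC3L, PPAN and MRTO4, lay between -0.21 and -0.03 in HCT116 and between 0.03 and 0.10 in SW480.

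Where one line was set beside the other, 44 of the 48 genes had a lower log2 ratio in HCT116 than in SW480, where 35.0% of the 11332 genes measured in both lines did. The median difference was -0.17, beside 0.08 over all genes. A value below control in HCT116 together with a value above control in SW480 was found for 32 of the 48 genes, where it was found for 17.4% of all genes. The largest differences belonged to POLR1C at -0.38, NOP16 at -0.37 and IMP4 at -0.35. GNL3, TBL3, NCL and NOC4L, at 0.09, 0.06, 0.04 and 0.04, were the 4 with a higher ratio in HCT116. Across the 48 genes the log2 ratios of the lines had a Spearman correlation of 0.251 and a Pearson correlation of 0.263, which describes genes and not replicates, and across all genes the Spearman correlation was -0.067. The difference between lines was not tested, because single libraries were not assigned to groups.

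The controls of both lines were also compared, to show how the genes stand without the construct. The order of the 48 genes was much the same, with a Spearman correlation of 0.926 across genes. On the scale of TPM + 1, at least 1.5-fold higher in HCT116 control were 8 of the 48, where 27.0% of the 13033 genes tested were, and at least 1.5-fold lower was 1 of 48, where 22.6% were. The 8 were BOP1, POLR1C, GNL3, RRN3, NOP10, PPAN, RRS1 and PES1. On plain TPM values UTP15, BYSL and NOLC1 also passed, which made 11 of the 48, where 29.2% of all genes passed. BOP1 and PES1, partners of WDR12 in the complex that matures the large-subunit RNA, were at 58.2 and 103 TPM in SW480 control and at 161 and 164 TPM in HCT116 control. WDR12 itself was at 12.9 and 15.1 TPM. DKC1 was the gene lower in HCT116 control, at 107 TPM against 196 TPM. On the scale of TPM + 1 the shares of the 48 genes were 16.7% higher and 2.08% lower.

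**Figure D5:**
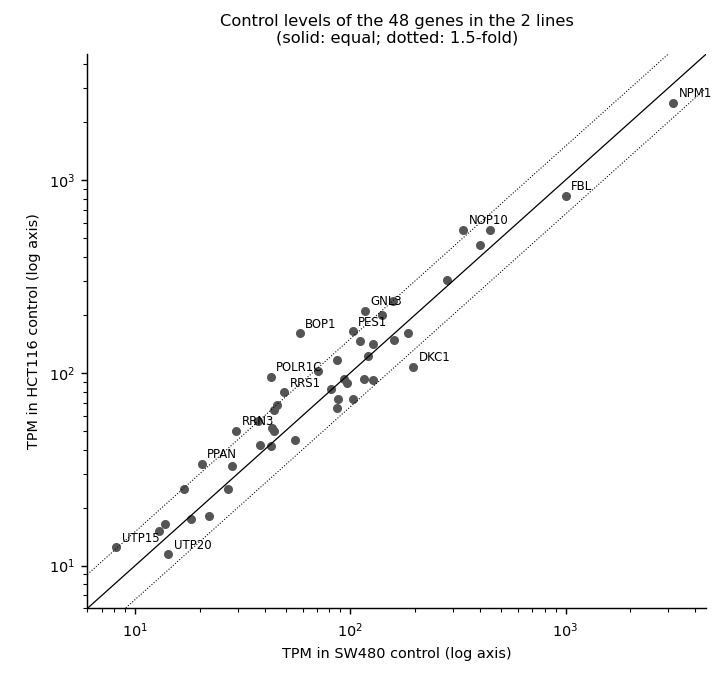
Control level of each of the 48 genes in SW480 (horizontal) and HCT116 (vertical), as TPM on log axes. The solid line marks equal levels and the dotted lines 1.5-fold in plain TPM, which 11 genes pass on the upper side. BOP1 and POLR1C lie furthest above the upper dotted line, and DKC1 is the only point below the lower one.

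The rest of the pathway was described from a list of 113 other genes, all found and all with at least 1 TPM in each line's comparison. In HCT116, 94 of 113 (83.2%) were below control with a median of -0.09, beside 39.2% of all genes. Of the 113, 5 (4.42%) were at least 1.2-fold lower and none was at least 1.2-fold higher, beside 2.16% and 12.1% of all genes. In SW480, 48 of 113 (42.5%) were below control with a median of 0.02, beside 61.1% of all genes. There 2 (1.77%) were at least 1.2-fold lower and 1 (0.885%) was at least 1.2-fold higher, beside 10.1% and 3.60% of all genes. POLR1G, a subunit of RNA polymerase I, had the lowest ratio in HCT116, at 17.5 TPM in control and 12.4 TPM with USP51, and its count ratio was 0.696 (0.602 to 0.804). NIP7, a large-subunit factor, followed in HCT116 after the readthrough gene PPAN-P2RY11, at 68.1 and 55.4 TPM. The highest in HCT116 were FCF1, NOP9 and TAF1B, at 0.14, 0.12 and 0.11.

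In SW480 the lowest of the 113 were LSG1 and NMD3, which act together in the export and final maturation of the large subunit. LSG1 was at 46.0 TPM in control and 34.7 TPM with USP51, and its count ratio was 0.778 (0.720 to 0.841). In HCT116 LSG1 was at 39.1 and 35.6 TPM, with a ratio of 0.893 (0.823 to 0.970). NMD3 was at 50.9 and 38.5 TPM, a count ratio of 0.780 (0.722 to 0.843), and in HCT116 it was at 58.8 and 59.6 TPM. PPAN-P2RY11 was at 32.0 and 24.4 TPM in HCT116 and at 9.98 and 15.1 TPM in SW480. It shares reads with PPAN, which was at 33.8 and 29.1 TPM in HCT116 and at 20.4 and 21.9 TPM in SW480, so the split between them is uncertain. DDX51 and POLR2F were the next highest in SW480, at 0.26 and 0.22, and POLR2H was the third lowest, at -0.25. LSG1, NMD3 and POLR2H are the only genes of the 113 on chromosome 3. Of the 48 genes, only GNL3 and RRP9 are on that chromosome, at -0.16 and -0.14 in SW480. Whether location or shared function has a part in the values of these genes was not tested.

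MYC was at 156 TPM in SW480 control and 233 TPM with USP51, and its count ratio was 1.54 (1.49 to 1.59). In HCT116 it was at 197 and 182 TPM, and the ratio was 0.909 (0.879 to 0.940). MYC and the median of the 48 genes thus lay above control in SW480 and below control in HCT116. The part of MYC in the values of the 48 genes was not tested. MAX, the partner through which MYC binds E-boxes, was at 33.1 and 33.2 TPM in HCT116 and at 47.9 and 46.6 TPM in SW480. MNT, a repressor that competes for MAX, was at 11.8 and 12.1 TPM in HCT116 and at 12.04 and 14.0 TPM in SW480.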

How the data were processed

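The labels describe 12 RNA-seq libraries. TopHat, DESeq 1.32.0 and hg38 are named, per the submitters' processing notes. Which tool counted reads, and whether by strand, is not given in the sources used here. A table was deposited of 84345 RefSeq transcripts (44726 curated) with estimated counts, TPM and FPKM, per the file headers. The deposited estimated counts are not divided by depth, the deposited TPM values are scaled by the authors to a fixed total, and the deposited FPKM values to length and depth. The 36 single-library columns match no label and were not used. The 12 columns of the authors' means were used, with C in their names read as control and E as USP51, letters the labels do not define.

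Transcripts were summed per gene, and log2 ratios were computed with a pseudocount of 1 for genes with at least 1 TPM in either group. The planned edgeR tests need single libraries and were not run, so no p-value is given. Count ratios have 95% exact Clopper-Pearson intervals on means rounded to whole counts, a step tested on simulated data. The simulated counts were those of single libraries, so the intervals were not tested on means of several libraries. Genes of each role with the extreme values, the most and least abundant, the largest differences between lines, and all genes of the RNA polymerase I, box C/D and box H/ACA roles were named. Other members, MAX, MNT and the markers named are outside that rule and were named after their values were seen. The members, lists and sizes were chosen with earlier results of these data known. Scaling factors came from edgeR 4.0.16 in R 4.3.3, and names and coordinates from the RefSeq table of GRCh38.p14. Motifs were searched on both strands of the RefSeq promoters.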

Additional observations from a re-analysis of the deposited data

How the results depend on the processing

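The direction of the median of the 48 genes was the same in each line under every alternative run: 0.03 to 0.11 in SW480, -0.18 to -0.12 in HCT116, and -0.27 to -0.17 for the difference between lines. The number below control in SW480, 13 in TPM, was 8 in FPKM, in CPM, with TMM factors and with upper-quartile factors, 7 with RLE factors, and, in alternatives chosen after seeing the data, 8 when centred on all genes and 7 when centred on genes of like abundance and length. The shares of all genes below control in SW480 were 61.1% in TPM, 49.3% in FPKM, 49.7% in CPM and 47.2% with TMM factors. They were 49.5% with upper-quartile factors, 45.5% with RLE factors, and 50% and 49.9% after centring, in the same order. The number at least 1.2-fold lower in HCT116, 7 in TPM, was 11 with TMM factors and 4 among the 35 genes that overlap no other gene, the last also chosen after seeing the data. Over all genes tested in HCT116, 268 were that much lower in TPM and 448 with TMM factors. At 1.1-fold the number lower was 19 in HCT116, where 9.47% of all genes were, and 3 in SW480, where 25.7% were, and at 1.5-fold it was 0 in HCT116. The cause was not tested for the scaling results. Fewer genes can only lower a count, and another size changes it by construction. Whether overlap itself has a part in the lower count was not tested. Of 1055 single values, 42 moved by more than the counting interval, 50 changed sign while short of 1.2-fold, and 0 past 1.2-fold changed sign. Among the 1055 are values with no filter and with a filter of 10 TPM, settings that cannot change a single value by construction. No paired analysis was possible because columns of single libraries have codes that no label explains and so give no replicate number, and columns were not assigned to groups by their values. The edgeR, DESeq2 and leave-one-out alternatives were left out for the same reason. Intervals are widest for the genes with the fewest counts, such as UTP15, PPAN, POLR1C and GAR1, and the spread between libraries is not known here.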

Other observations

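Transcript make-up was described for the 48 genes because the deposited table lists transcripts. 17 genes have 1 transcript in the table and 31 have several, and in 40 the leading transcript held at least 80% of the gene's TPM in every group. GAR1 was the single gene in which that share differed by over 10 percentage points between the groups of a line. Its leading transcript NM_032993.2 held 68.0% in SW480 control, 90.0% in SW480 with USP51, 91.6% in HCT116 control and 94.9% in HCT116 with USP51. In SW480 that transcript was at 59.8 TPM in control and 80.5 TPM with USP51, while the other transcript of the gene was at 28.1 and 8.93 TPM, so the gene total of 87.9 and 89.4 TPM hid opposite differences. How the authors' tool divides reads between the transcripts was not tested.

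FBL, RRP1 and UBTF had under 50% of their level on curated transcripts in every group. UBTF on curated transcripts alone had a log2 ratio of -0.39 in HCT116, and RRP1 had 0.01 there, against -0.21 and -0.13 for all transcripts.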
